A study of Homo sapiens with 8 samples.

Results

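The tripartite motif (TRIM) family was followed in the established human cell line SUM159, from a triple-negative breast cancer, under the PARP inhibitor olaparib and under olaparib with an shRNA against FOXO1. Family members were taken by symbol, as TRIM followed by a number and at most 1 further letter, together with PML, which is also known as TRIM19. Of 60595 genes listed by the authors, 74 symbols met the name rule, and the 43 that the authors had tested in at least 1 of their 2 comparisons were kept. All 43 were tested for olaparib and 42 for shFoxO1, the exception being TRIM6. A lentivirus had brought in either shCon, a control hairpin, or shFoxO1, a hairpin that targets FOXO1. They were kept for 3 days in DMSO, the solvent, or in 10 uM olaparib. The groups used here are shCon in DMSO, shCon in olaparib and shFoxO1 in olaparib, so the last differs from the second in its shRNA and from the first in both shRNA and drug. The labels list 8 libraries, 2 in each of 4 groups. The fourth group, shFoxO1 cells in DMSO, was not analysed here, so whether shFoxO1 acts on these genes without the drug cannot be read. All groups come from 1 cell line, and the labels do not say how many hairpins were used.

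TRIM proteins are named for a shared front end: a RING finger, which in most members gives ubiquitin ligase activity, then 1 or more B-boxes and a coiled coil. The part that follows differs between members and largely sets what each protein binds. A PRY-SPRY tail is the most common, and other members end in a PHD finger with a bromodomain, in NHL repeats, or in no recognised domain. Many TRIM genes are induced by interferon, and their products act on viruses directly or adjust the signalling of RNA and DNA sensors. PML organises nuclear bodies, while TRIM24, TRIM28 and TRIM33 act on chromatin.

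The authors gave 1 value per gene and group, in FPKM, fragments counted per length of transcript and per size of library, with a q-value for each comparison. The values thus carry no SD and no n, and sequencing depth is unknown. Nothing in the labels states that the 2 libraries of each group grew as separate cultures, so the q-values may measure technical spread. A gene is called higher or lower where the authors' deposited table gives a q-value of at most 0.05. The smallest q possible was 0.000284 in the authors' deposited table for olaparib and 0.000244 in that for shFoxO1, and genes at these values cannot be ranked by q. The shCon olaparib group stands in both tables, scaled separately, with its values in the second a median 1.017 times those in the first. Both comparisons share that group, so a high or low value in it moves both ratios of a gene in opposite directions.

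FOXO1, the gene aimed at, fell 5.11-fold under olaparib, from 89.2 FPKM in shCon cells to 17.5 FPKM in shFoxO1 cells. Of the markers of the line, VIM stood at 2456 FPKM in untreated shCon cells and 2446 FPKM with olaparib, not called, and was lower with shFoxO1, at 1656 against 2487 FPKM. KRT18 fell from 213 to 110.2 FPKM with olaparib, KRT5 rose from 0.485 to 2.96 FPKM with olaparib and fell from 3.02 to 0.842 FPKM with shFoxO1, and ERBB2 fell from 33.8 to 19.9 FPKM with shFoxO1. KRT14 was at 0.394 FPKM in DMSO, listed at 0 with shCon in olaparib and at 0.981 FPKM with shFoxO1, called higher. KRT17 stood at 3.30 and 0.068 FPKM without and with olaparib, then at 0.0693 and 16.4 FPKM with shCon and shFoxO1. It was called in neither comparison. Nor was CD44, at 129.4 and 119.1 FPKM for olaparib and 121.1 and 120.8 FPKM for shFoxO1. CDH1 and PGR were listed at 0 in all 3 groups, and ESR1 and EPCAM stayed below 0.1 FPKM. Over 8 leukocyte markers the summed level was 20.4 FPKM in DMSO, 15.5 FPKM with olaparib and 39.7 FPKM with shFoxO1 and olaparib. Nearly all of it was CD68, at 18.2, 14.9 and 39.3 FPKM, while CD3D, LYZ and MS4A1 stood at 0 in each group. The 4 endothelial markers summed to 5.34, 0.475 and 4.34 FPKM, of which KDR, called lower with olaparib and higher with shFoxO1, made 5.23, 0.379 and 2.57 FPKM. PECAM1 rose from 0.0937 to 1.80 FPKM with shFoxO1 (q of 0.00396, the authors' deposited table), while VWF and CDH5 stayed below 0.1 FPKM in each group. The part of these markers in the results was not tested.

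TRIM genes spanned more than 3 orders of magnitude in level. TRIM28, the corepressor of KRAB zinc finger proteins, was the highest member in each group, at 311 FPKM in shCon cells in DMSO, 238 FPKM with olaparib and 203 FPKM with shFoxO1 and olaparib (the last brought to the scale of the first table). It made up 28.8%, 29.4% and 20.4% of the summed FPKM of the 43 members. In DMSO it was followed by TRIM8 at 72.8 FPKM, TRIM44 at 58.4, TRIM25 at 56.8, TRIM27 at 56.5, TRIM16 at 50.9 and PML at 49.5 FPKM. With no spread between libraries, neighbours in this order cannot be told apart. The median member stood at 10.1, 10.3 and 12.8 FPKM in the 3 groups, and 39, 40 and 39 members reached 1 FPKM.

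The authors did not test the remaining 31 symbols in either comparison. Of these, 16 were listed at 0 in every group, and the highest value among the other 15 was 0.316 FPKM, in TRIM74 under olaparib. Just inside the limit stood TRIM6, at 0.632 FPKM in DMSO and 0.864 FPKM with olaparib, tested for olaparib and not for shFoxO1. TRIM63, the muscle ligase MuRF1 and a FOXO target in wasting muscle, was listed at 0 in both shCon groups and at 0.0364 FPKM with shFoxO1. Its muscle relative TRIM55 was listed at 0 throughout.

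**Figure D1:**
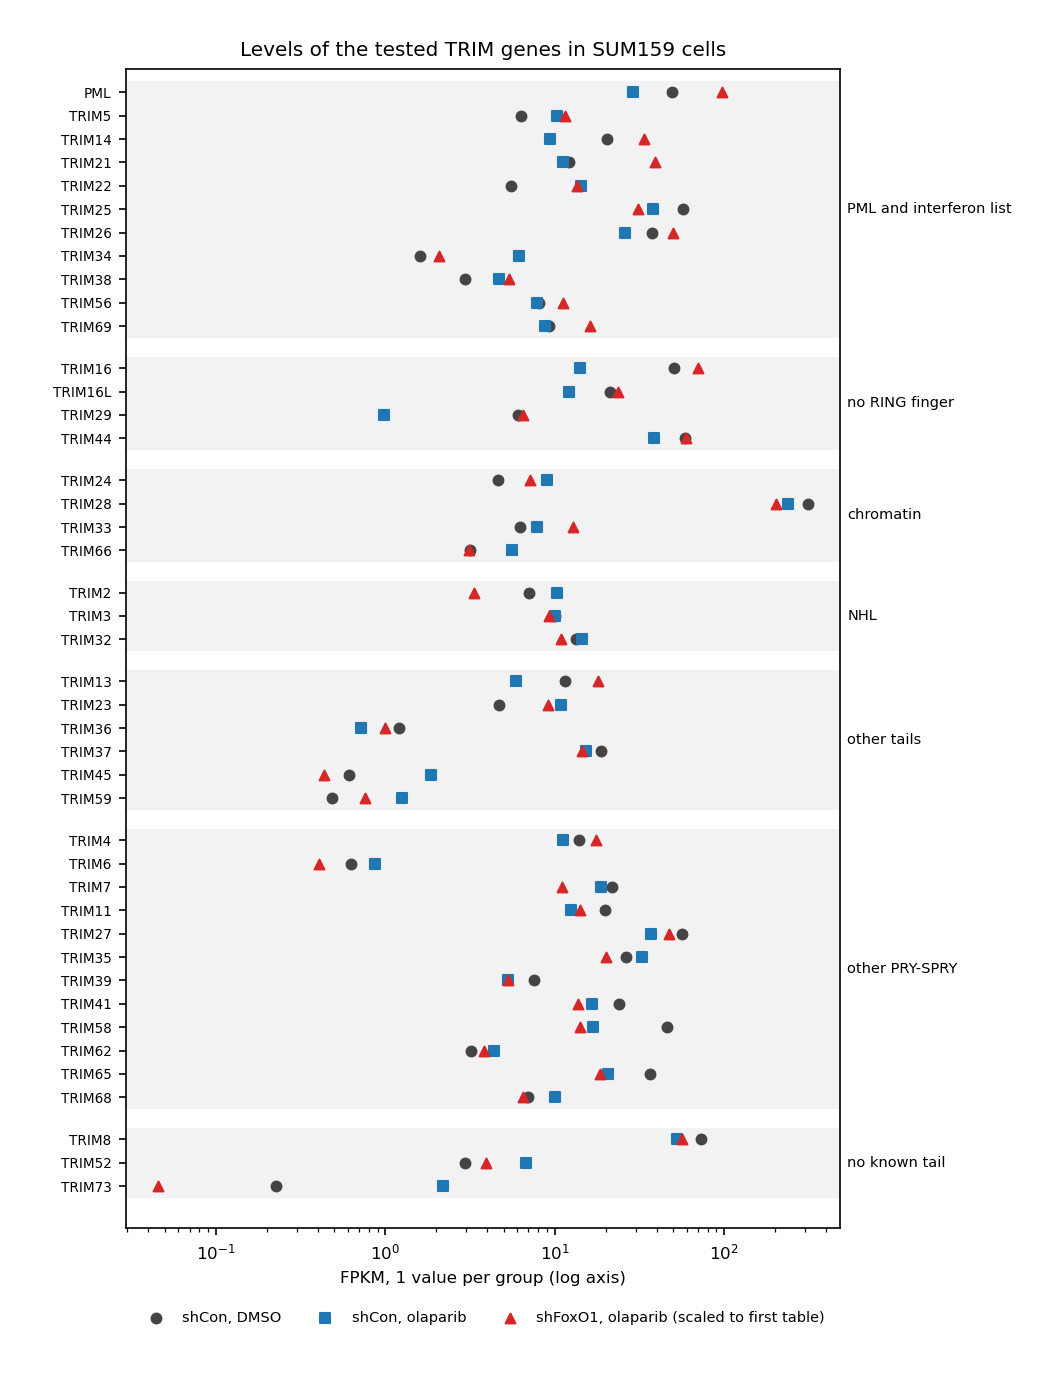
Levels of the 43 tested TRIM genes, as FPKM on a log axis, with 1 point per group: shCon in DMSO (circles), shCon in olaparib (squares) and shFoxO1 in olaparib (triangles, brought to the scale of the first table). TRIM28 lies to the right of all others, and TRIM73, TRIM45, TRIM59, TRIM6 and TRIM36 lie below 2.2 FPKM in each group.

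With olaparib, 8 of the 43 members were called higher and 14 lower in shCon cells. Over all 14841 tested genes the shares were 15.6% higher and 23.1% lower, against 18.6% and 32.6% of the members. In either direction the share was 51.2% of members beside 38.7% of all tested genes. The median log2 ratio of the members was -0.13, beside -0.07 over all genes. The change was at least 2-fold in 4 of the called rises (TRIM22, TRIM23, TRIM34 and TRIM45) and 4 of the called falls (TRIM14, TRIM16, TRIM29 and TRIM58). Such calls came to 17.7% of all tested genes. In bulk RNA, fewer cells of a kind and less RNA per cell cannot be told apart.

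With shFoxO1 under olaparib, 12 of 42 members were called higher and 7 lower. These shares, 28.6% and 16.7%, stand beside 22.6% and 19.8% of all 14660 tested genes, and the share in either direction, 45.2%, beside 42.4%. The family as a whole was thus called about as often as genes in general. The median log2 ratio of the members was -0.07, beside 0.01 over all genes. At least 2-fold calls were 6 rises (PML, TRIM13, TRIM14, TRIM16, TRIM21 and TRIM29) and 3 falls (TRIM2, TRIM45 and TRIM73), beside 22.8% of all tested genes in either direction.

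**Figure D2:**
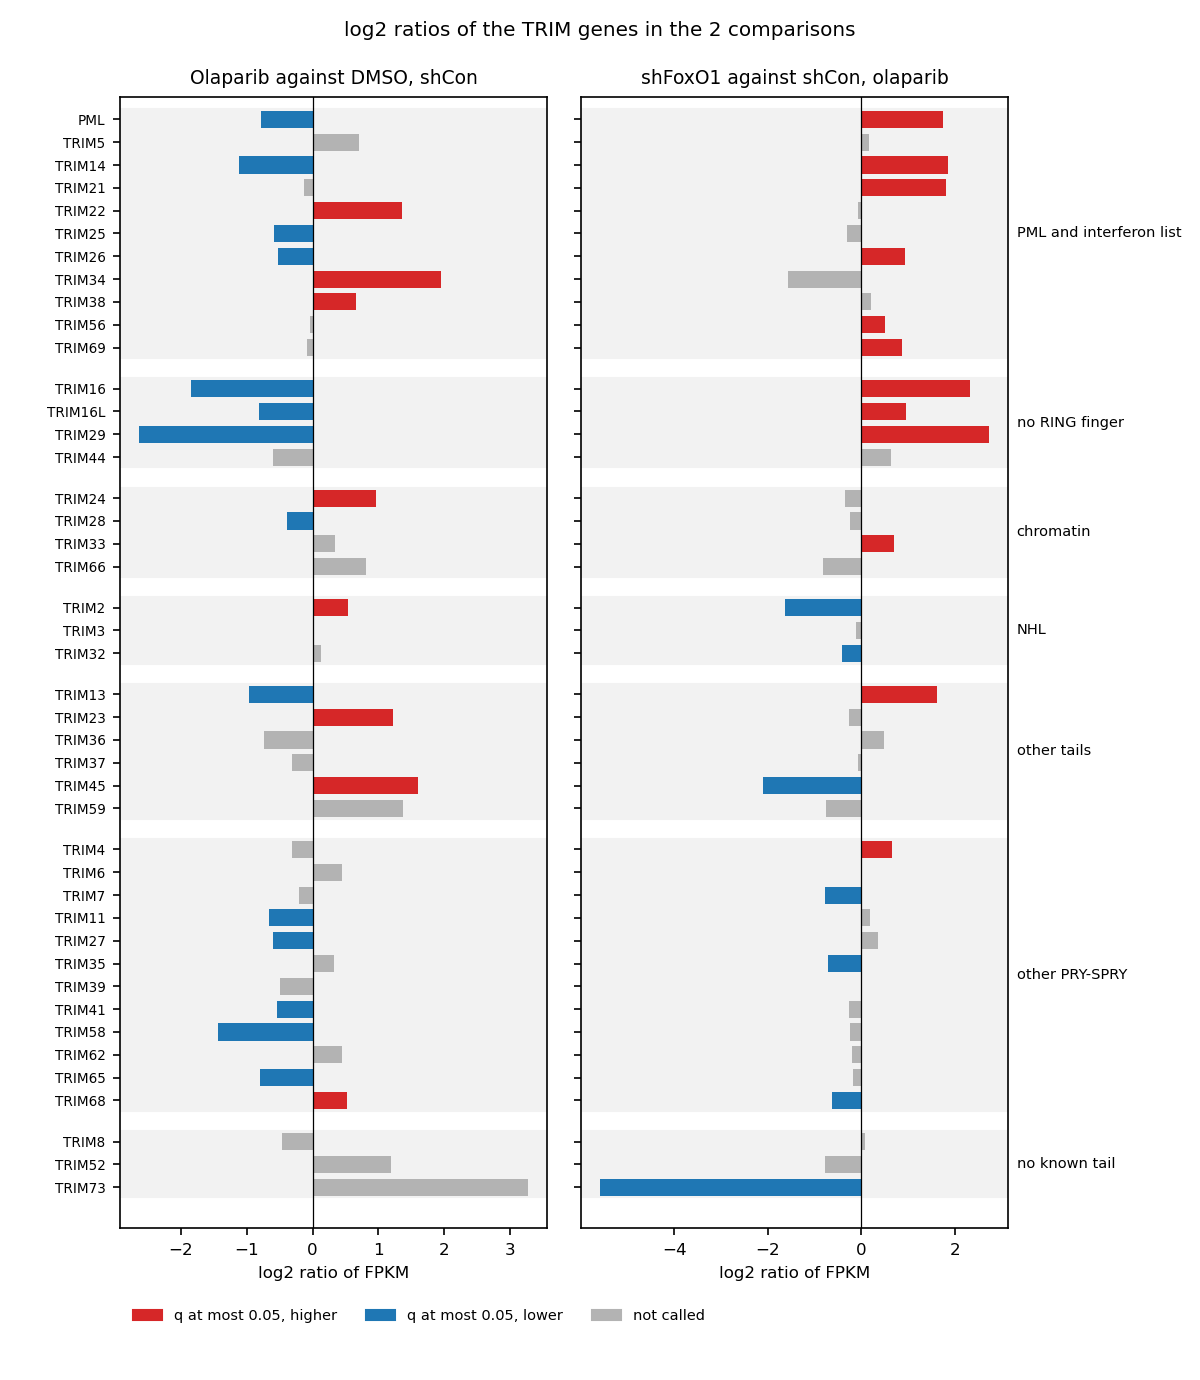
log2 ratio of FPKM for each TRIM gene, with olaparib against DMSO on the left and shFoxO1 against shCon on the right. Red and blue bars are members with a q of at most 0.05 in the authors' deposited tables, grey bars are not called, and TRIM6 was not tested on the right.

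PML and the other members known to be induced by interferon were called in both directions with the drug and in a single direction with the shRNA. Of 11 such genes, olaparib left TRIM22, TRIM34 and TRIM38 higher, PML, TRIM14, TRIM25 and TRIM26 lower, and 4 not called, with a median log2 ratio of -0.08. These are 27.3% higher and 36.4% lower, beside 15.6% and 23.1% of all tested genes. With shFoxO1, PML, TRIM14, TRIM21, TRIM26, TRIM56 and TRIM69 were higher, none was lower and 5 were not called. That is 54.5% called higher, beside 22.6% of all tested genes, with a median log2 ratio of 0.51. Of the other members, 6 of 31 were called higher and 7 lower (19.4% and 22.6%, beside 22.6% and 19.8% of all tested genes).

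PML, the scaffold of the nuclear bodies that bear its name, fell from 49.5 to 28.9 FPKM with olaparib, a 1.72-fold decrease. Its log2 ratio of -0.78 shrank to -0.48 after quantile normalization. With shFoxO1 it rose 3.35-fold, from 29.4 to 98.4 FPKM. The shFoxO1 group was the highest of the 3 and the olaparib group the lowest.

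TRIM14, an adaptor that lacks the RING finger and acts in MAVS and cGAS signalling, fell 2.18-fold with olaparib, from 20.5 to 9.39 FPKM. It rose 3.60-fold with shFoxO1, from 9.55 to 34.3 FPKM. TRIM26, encoded in the MHC region, fell from 37.3 to 26.0 FPKM with the drug (log2 ratio -0.52, or -0.26 after quantile normalization; q of 0.0228, the authors' deposited table). With shFoxO1 it rose from 26.4 to 50.7 FPKM, a 1.92-fold increase. The order of the 3 groups was the one seen for PML.

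TRIM21, the cytosolic antibody receptor, was at 12.2 FPKM in DMSO and 11.1 FPKM with olaparib, without a call (q of 0.616, the authors' deposited table). With shFoxO1 it rose 3.50-fold, from 11.3 to 39.7 FPKM. TRIM69, which inhibits vesicular stomatitis virus, stood at 9.31 and 8.81 FPKM without and with olaparib, not called, and rose from 8.97 to 16.4 FPKM with shFoxO1. TRIM56, a cofactor in STING and TLR3 signalling, stood at 8.06 and 7.85 FPKM, not called, and with shFoxO1 rose from 7.99 to 11.4 FPKM (q of 0.0344, the authors' deposited table). These 3 genes had near-equal levels in both shCon groups and a higher level in the shFoxO1 group.

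TRIM22, an antiviral ligase that is also a p53 target, rose from 5.52 FPKM in DMSO to 14.2 FPKM in olaparib, a 2.57-fold increase (q of 0.00123, the authors' deposited table). With shFoxO1 it was not called, at 14.5 and 13.7 FPKM (q of 0.864, the authors' deposited table). TRIM38, which restrains inflammatory receptor signalling, rose from 2.97 to 4.67 FPKM with the drug and stood at 4.76 and 5.46 FPKM in the second comparison, not called. For both genes the 2 olaparib groups were close to each other and above DMSO.

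TRIM34 rose from 1.60 to 6.19 FPKM with olaparib (q of 0.0411, the authors' deposited table) and was at 6.31 and 2.12 FPKM with shCon and shFoxO1, not called (q of 0.0819, the authors' deposited table). TRIM5, whose product binds retroviral capsids, was called in neither comparison. In DMSO it was at 6.28 FPKM and in olaparib at 10.3 FPKM (q of 0.0741, the authors' deposited table). In the second comparison its levels were 10.4 FPKM in shCon cells and 11.8 FPKM in shFoxO1 cells.

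TRIM25, the ligase that modifies RIG-I and works with the antiviral protein ZAP, fell from 56.8 to 37.9 FPKM with olaparib (q of 0.00448, the authors' deposited table). Its log2 ratio was -0.58, or -0.25 after quantile normalization. With shFoxO1 it stood at 38.6 and 31.4 FPKM, without a call (q of 0.178, the authors' deposited table). The sensor genes beside which it acts had larger ratios in both comparisons. DDX58, which encodes RIG-I, fell from 22.3 to 1.21 FPKM with olaparib and rose from 1.23 to 172 FPKM with shFoxO1. ZC3HAV1, which encodes ZAP, fell from 79.0 to 14.4 FPKM and rose from 14.6 to 214 FPKM. The sensor IFIH1 (MDA5) fell from 17.6 to 3.17 FPKM and rose from 3.23 to 180 FPKM, and DHX58 (LGP2) fell from 20.6 to 9.29 FPKM and rose from 9.44 to 93.8 FPKM. Of the 11 genes of RNA sensing listed, 9 were called lower and none higher with olaparib, and 7 higher and 1 lower with shFoxO1, the last being the adaptor MAVS. In percent of the list, 81.8% were lower with olaparib (23.1% of all tested genes), and 63.6% were higher and 9.09% lower with shFoxO1 (22.6% and 19.8% of all tested genes).

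**Figure D3:**
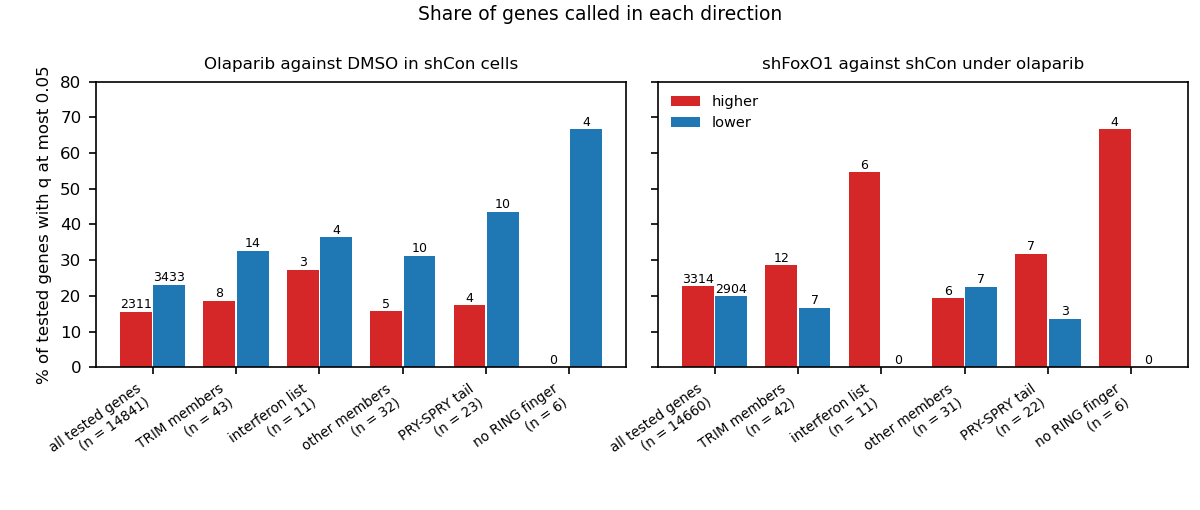
Share of tested genes with a q of at most 0.05 in each direction, in percent, for all tested genes, all TRIM members and groups of them, with the number called above each bar. In the comparison of shFoxO1 with shCon, 6 of 11 genes of the interferon list and 4 of 6 members without a RING finger were called higher and none lower.

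Because several of these genes moved together, promoter sequences were searched for an IRF-type element, GAAA, any 2 bases, then GAAA, on both strands. RefSeq promoter windows (GRCh38.p14) run from 250 bases before to 50 bases after a transcript start. The table held 45 windows for 30 of the 43 members and none for PML, TRIM4, TRIM8, TRIM11, TRIM13, TRIM16L, TRIM22, TRIM24, TRIM27, TRIM28, TRIM29, TRIM35 and TRIM45. A match was present in 9 of the 45 windows, or 20%, beside 3.57% of all 35116 windows. By gene, 9 of 30 members had a match, beside 4.38% of 27305 genes. The 9 were TRIM2, TRIM5, TRIM14, TRIM16, TRIM21, TRIM26, TRIM34, TRIM44 and TRIM69, which takes in 6 of the 9 interferon-list members with a window and 3 of 21 others. The matches of the interferon-list members and of TRIM16, which of the other 3 changed most with olaparib, are shown in capitals, 5′ to 3′ on the strand of the gene, since they let a reader compare spacing and neighbouring bases.
TRIM5: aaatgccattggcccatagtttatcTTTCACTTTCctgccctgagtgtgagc
TRIM14: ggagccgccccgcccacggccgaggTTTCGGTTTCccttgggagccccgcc
TRIM69: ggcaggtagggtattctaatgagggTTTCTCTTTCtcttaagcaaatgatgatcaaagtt
TRIM34: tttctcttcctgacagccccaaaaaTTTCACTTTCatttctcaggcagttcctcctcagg
TRIM26: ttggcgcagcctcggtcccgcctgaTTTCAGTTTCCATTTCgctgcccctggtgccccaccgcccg
TRIM21: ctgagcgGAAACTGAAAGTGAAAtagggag
TRIM16: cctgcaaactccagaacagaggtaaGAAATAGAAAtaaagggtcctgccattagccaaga

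The windows lie at chr11:5685075-5685126 for TRIM5, chr9:98119223-98119273 for TRIM14, chr15:44736441-44736500 for TRIM69 and chr11:5624886-5624945 for TRIM34. Those of TRIM26, TRIM21 and TRIM16 lie at chr6:30213560-30213625, chr11:4393663-4393692 and chr17:15682997-15683056. TRIM34 and TRIM69 are on the plus strand and the other 5 on the minus strand. Counting the last base before the start as -1, the match ended at -18 in TRIM5 and at -17 in TRIM14. In TRIM21 it lay 18 to 33 bases after the start, as 2 overlapping copies, and TRIM26 also had 2 overlapping copies, from -194 to -179. No IRF-type match overlapped a match to another searched element. Of the 9 genes with a match, TRIM14, TRIM16, TRIM21, TRIM26 and TRIM69 were called higher with shFoxO1 and TRIM2 lower. TRIM5, TRIM34 and TRIM44 were not called. The rest of the 30 members with a window had no match. Of these, TRIM33 and TRIM56 were called higher, and TRIM7, TRIM32, TRIM68 and TRIM73 lower. In the whole shFoxO1 comparison, higher calls made up 22.6% of tested genes and lower calls 19.8%. PML, TRIM4, TRIM13, TRIM16L and TRIM29, called higher, and TRIM35 and TRIM45, called lower, had no window and stand in neither group. Whether the element bears on the response was not tested. A STAT-type element, TTCNNNGAA, was found in 4 of the 30 members (TRIM2, TRIM3, TRIM7 and TRIM16), or 13.3%, beside 9.38% of genes. A FOXO-type element, GTAAACA, was found in 1, TRIM2, or 3.33% beside 4.19% of genes. No member held the NF-kB-type letters GGGA, any base, then TTTCC, found in 0.678% of genes.

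**Figure D4:**
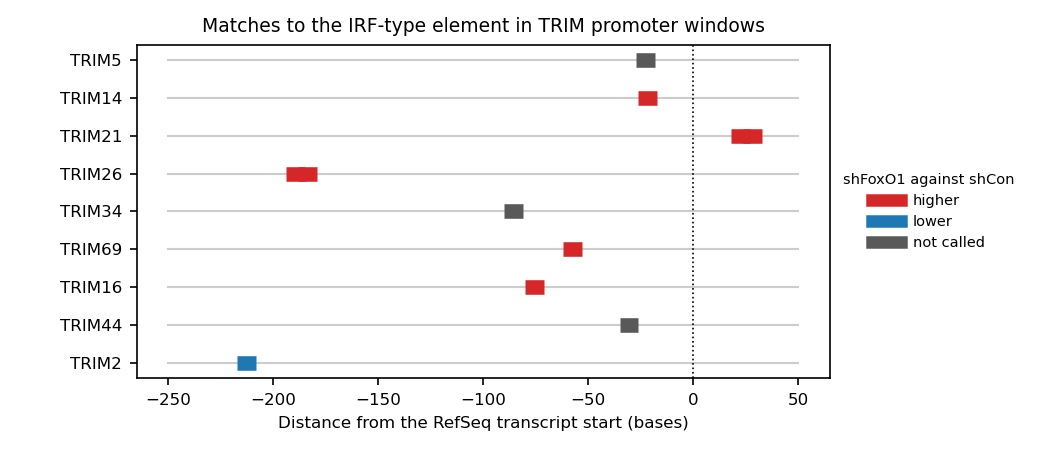
Position of each match to the IRF-type element in the promoter windows of 9 TRIM genes, in bases from the RefSeq transcript start (dotted line). Bars are coloured by the call for shFoxO1 against shCon. In TRIM21 the match lies after the start, and in the other 8 genes before it.

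Members without a RING finger held the steepest called falls with olaparib and the steepest called rises with shFoxO1, those of TRIM29 and TRIM16. Of 6 such genes, TRIM14 among them, 4 were called lower and none higher with olaparib (66.7%, beside 23.1% of all tested genes), and 4 were called higher and none lower with shFoxO1 (66.7%, beside 22.6%). TRIM16, which acts in the response to damaged membranes and oxidative stress, fell 3.61-fold with the drug, from 50.9 to 14.1 FPKM. With shFoxO1 it rose 5.00-fold, from 14.3 to 71.8 FPKM. Its shorter relative TRIM16L fell from 21.2 to 12.1 FPKM and rose from 12.3 to 24.0 FPKM. The genes are close copies, so how reads were divided between them is uncertain. TRIM29, a regulator found in basal epithelia and in DNA damage signalling, fell 6.20-fold, from 6.10 to 0.984 FPKM, and rose 6.58-fold, from 1.00 to 6.60 FPKM. TRIM44, which carries a ubiquitin-binding zinc finger in place of the RING, was not called. Its levels were 58.4 FPKM in DMSO and 38.6 FPKM in olaparib (q of 0.286, the authors' deposited table), then 39.3 FPKM with shCon against 60.5 FPKM with shFoxO1 (q of 0.267, the authors' deposited table). TRIM66 is described with the chromatin members.

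Of the 4 chromatin members, which share a PHD finger and bromodomain, 1 was called higher and 1 lower with olaparib. These are 25% each, beside 15.6% higher and 23.1% lower among all tested genes. TRIM24, a nuclear receptor cofactor and ligase for p53, rose from 4.65 to 9.05 FPKM, a 1.95-fold increase, and stood at 9.22 and 7.25 FPKM with shCon and shFoxO1, not called. TRIM28 fell from 311 to 238 FPKM (q of 0.0344, the authors' deposited table), but its log2 ratio of -0.38 turned to 0.06 after quantile normalization. It stood at 243 and 206 FPKM in the second comparison, not called. TRIM33, a regulator of SMAD4, stood at 6.20 and 7.87 FPKM without and with the drug, not called. With shFoxO1 it rose from 8.01 to 13.0 FPKM (q of 0.0132, the authors' deposited table). TRIM66 was at 3.16 and 5.56 FPKM with olaparib and at 5.66 and 3.19 FPKM with shFoxO1, not called.

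TRIM28 silences through partners that read and write histone marks. Of 13 listed, 5 were called higher and none lower with olaparib, beside 15.6% higher among all tested genes, and 1 was called higher and 4 lower with shFoxO1, or 7.69% and 30.8% beside 22.6% and 19.8%. In either direction 38.5% were called in each comparison, near the 38.7% and 42.4% of all tested genes. CBX1, a heterochromatin protein, rose from 34.3 to 59.4 FPKM with olaparib and fell from 60.5 to 25.0 FPKM with shFoxO1. Its relative CBX3, the one higher call with shFoxO1, rose from 66.4 to 163 FPKM there, after 100.4 FPKM in DMSO and 65.2 FPKM in olaparib, not called. HDAC1, a histone deacetylase, rose from 41.3 to 61.6 FPKM and fell from 62.7 to 31.3 FPKM. ATF7IP, the partner of the methyltransferase SETDB1, rose from 11.6 to 24.7 FPKM and stood at 25.1 and 21.1 FPKM, not called. CHD3, a remodeller that binds TRIM28, was at 43.5 and 45.5 FPKM with olaparib, not called, and fell from 46.3 to 20.6 FPKM with shFoxO1. SETDB1 itself was called in neither comparison.

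Of 16 tested genes of PML bodies, 2 were called higher and 4 lower with olaparib, and 5 higher and 1 lower with shFoxO1. That is 37.5% called in each comparison, beside 38.7% and 42.4% of all tested genes. In either direction the list was thus called no more often than genes in general. By direction, 12.5% were higher and 25% lower with olaparib, beside 15.6% and 23.1% of all tested genes. With shFoxO1, 31.25% were higher and 6.25% lower, beside 22.6% and 19.8%. SP100, a resident protein of these bodies, fell from 34.9 to 22.7 FPKM and rose from 23.1 to 87.4 FPKM. ISG20, an interferon-induced exonuclease found at these bodies, fell from 44.0 to 6.14 FPKM and rose from 6.24 to 220 FPKM. BLM, the helicase stored there, was at 4.60 and 5.98 FPKM, not called, and fell from 6.09 to 3.49 FPKM with shFoxO1 (q of 0.0075, the authors' deposited table). The partner DAXX fell from 59.7 to 43.9 FPKM with olaparib and was not called with shFoxO1.

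Among the NHL members, TRIM2, a ligase for neurofilament light chain, rose from 7.10 to 10.3 FPKM with olaparib (q of 0.0275, the authors' deposited table). With shFoxO1 it fell 3.10-fold, from 10.5 to 3.38 FPKM, to a level below that of both shCon groups. TRIM32, mutated in a limb-girdle muscular dystrophy, was at 13.3 and 14.5 FPKM with olaparib, not called, and fell from 14.8 to 11.1 FPKM with shFoxO1 (q of 0.0477, the authors' deposited table). TRIM3 was not called, at 10.1 FPKM in both shCon groups of the first table and 9.41 FPKM with shFoxO1.

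Members with other tails differed from one another. TRIM13, a ligase anchored in the endoplasmic reticulum, fell from 11.5 to 5.89 FPKM with olaparib (q of 0.0131, the authors' deposited table) and rose 3.07-fold with shFoxO1, from 5.99 to 18.4 FPKM. TRIM23, which carries an ARF-type GTPase domain, rose from 4.68 FPKM in DMSO to 10.9 FPKM in olaparib, a 2.32-fold increase (q of 0.0327, the authors' deposited table), and stood at 11.1 and 9.29 FPKM in the second comparison, not called. TRIM45, with a filamin-type domain, rose 3.04-fold, from 0.614 to 1.87 FPKM, and fell 4.31-fold, from 1.90 to 0.441 FPKM (q of 0.00518, the authors' deposited table). At these low levels the log2 ratios of 1.60 and -2.11 shrank to 0.83 and -1.01 on the log2(FPKM + 1) scale. TRIM37, a ligase that controls centrosome number, TRIM59, a membrane-anchored member, and TRIM36, which binds microtubules, were called in neither comparison. TRIM37 was at 18.9 and 15.2 FPKM for olaparib and at 15.5 and 14.8 FPKM for shFoxO1. TRIM59 and TRIM36 stayed below 1.5 FPKM in each group.

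Of the 12 PRY-SPRY members not yet described, 5 fell and 1 rose with olaparib, and 1 rose and 3 fell with shFoxO1. Of all 23 members with this tail, the interferon list included, 10 were called lower and 4 higher with olaparib (43.5% and 17.4%, beside 23.1% and 15.6%). With shFoxO1, 7 of the 22 tested were called higher and 3 lower (31.8% and 13.6%, beside 22.6% and 19.8% of all tested genes). TRIM58, known for binding dynein in red cell precursors, fell 2.72-fold, from 45.8 to 16.9 FPKM, and stood at 17.2 and 14.4 FPKM with shCon and shFoxO1, not called. TRIM65, a ligase for MDA5, fell from 36.3 to 20.7 FPKM and stood at 21.1 and 18.7 FPKM. TRIM11 fell from 19.9 to 12.6 FPKM and stood at 12.8 and 14.4 FPKM. For these genes both olaparib groups lay below DMSO. TRIM27, first found fused to RET, fell from 56.5 to 37.2 FPKM (log2 ratio -0.60, or -0.27 after quantile normalization), and TRIM41 from 24.0 to 16.6 FPKM (q of 0.00733, the authors' deposited table; log2 ratio -0.53, or -0.35). Neither was called with shFoxO1, at 37.8 and 48.4 FPKM for TRIM27 (q of 0.0594, the authors' deposited table) and 16.9 and 14.0 FPKM for TRIM41.

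TRIM68, an androgen receptor coactivator, rose from 6.99 to 10.1 FPKM with olaparib (q of 0.0282, the authors' deposited table) and fell from 10.3 to 6.62 FPKM with shFoxO1 (q of 0.00694, the authors' deposited table). TRIM7, which binds glycogenin, and TRIM35 were not called with the drug, at 21.8 and 18.8 FPKM and at 26.4 and 33.0 FPKM. With shFoxO1 TRIM7 fell from 19.2 to 11.2 FPKM (q of 0.00608, the authors' deposited table) and TRIM35 from 33.5 to 20.5 FPKM. TRIM4 went the other way with shFoxO1, rising from 11.4 to 17.9 FPKM (q of 0.00161, the authors' deposited table), after 14.0 and 11.2 FPKM without and with olaparib, not called. TRIM6, TRIM39 and TRIM62 were called in no comparison in which they were tested. TRIM39 was at 7.52 FPKM in DMSO and 5.32 FPKM in olaparib, and at 5.36 FPKM with shFoxO1, beside 5.41 FPKM with shCon in that table. TRIM62 was at 3.20, 4.38 and, with shFoxO1, 3.89 FPKM.

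Of the members with no recognised tail, TRIM8, a regulator of NF-kB and cytokine signalling, was called in neither comparison, at 72.8 and 52.9 FPKM for olaparib (q of 0.0723, the authors' deposited table), then 53.8 and 57.1 FPKM for shFoxO1. TRIM52 was at 2.95 and 6.76 FPKM and at 6.88 and 4.01 FPKM, not called (q of 0.506 and 0.649, the authors' deposited tables). Its opposite-strand neighbour TRIM52-AS1 was at 13.9 and 8.67 FPKM and at 8.82 and 13.6 FPKM. Whether the authors counted by strand is not given in the sources used here, so these cannot be fully told apart. TRIM73, a member with close copies, was at 0.227 and 2.18 FPKM with olaparib, not called (q of 0.0869, the authors' deposited table). With shFoxO1 it fell from 2.22 to 0.0466 FPKM (q of 0.0211, the authors' deposited table). Its log2 ratio of -5.57 shrank to -1.62 on the log2(FPKM + 1) scale.

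Family members that go by other names were looked up too. MEFV, which encodes pyrin (TRIM20), fell from 2.48 to 0.0860 FPKM with olaparib and rose from 0.0874 to 2.98 FPKM with shFoxO1. MID2 (TRIM1) was listed at 0 with shCon in olaparib and at 1.45 FPKM with shFoxO1, called higher. MID1 (TRIM18), the microtubule-bound member mutated in Opitz syndrome, rose from 6.01 to 9.80 FPKM with olaparib (q of 0.0258, the authors' deposited table) and stood at 9.98 and 7.32 FPKM in the second comparison, not called.

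Position in the genome was not used to choose the members. TRIM5, TRIM6, TRIM34 and TRIM22 lie within 1 stretch of chromosome 11, from 5588635 to 5710863 in GRCh38.p14, in which the RefSeq TRIM5 gene spans TRIM6 and TRIM34. Their log2 ratios with olaparib were 0.71, 0.45, 1.96 and 1.36, of which the last 2 were called. With shFoxO1 TRIM5, TRIM34 and TRIM22 had ratios of 0.17, -1.57 and -0.07, none called. In the authors' tables each of these 4 genes shares its listed region with 51 other genes, the other 3 among them, so how reads were divided there cannot be checked. The same limit holds more widely, since 33 of the 43 members share a listed region with another gene, TRIM13 with 25 others. The read-through gene TRIM6-TRIM34 was listed at 0 in all groups. TRIM21 and TRIM68, further out on the same arm at 4384897 to 4393702 and 4598672 to 4608231, had ratios of -0.13, not called, and 0.53, called higher, with olaparib. With shFoxO1 TRIM21 was called higher and TRIM68 lower. On chromosome 6, TRIM38, TRIM27, TRIM26 and TRIM39 lie in that order from 25962802 to 30343729, with ratios of 0.65, -0.60, -0.52 and -0.50 with olaparib, of which the first 3 were called.

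Set against untreated control cells, the cells with shFoxO1 and olaparib had different levels of some members. This pair stands in separate tables, so the values below use the first table's scale and no test was made. TRIM21 was at 39.0 FPKM against 12.2 FPKM in shCon cells in DMSO (log2 ratio 1.68). PML was at 96.7 against 49.5 FPKM (0.97) and TRIM22 at 13.5 against 5.52 FPKM (1.29). TRIM58 was at 14.1 against 45.8 FPKM (-1.70), TRIM2 at 3.32 against 7.10 FPKM (-1.10) and TRIM25 at 30.8 against 56.8 FPKM (-0.88). These are examples, and other members had ratios of similar or larger size. Among them were TRIM73 (-2.31, at 0.0458 against 0.227 FPKM), TRIM33 (1.05), TRIM23 (0.96), TRIM7 (-0.98) and TRIM65 (-0.98). TRIM29, with 6.49 against 6.10 FPKM (0.09), and TRIM16L, with 23.6 against 21.2 FPKM (0.15), had close values in these groups and a lower one in shCon cells under olaparib.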

How the data were processed

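After removal of ribosomal RNA, the RNA of SUM159 cells went into strand-keeping libraries read from both ends, per the labels' protocols. The submitters' processing notes name CASAVA 1.4, HISAT2 2.1.0, Cufflinks 2.2.1 and hg38 but not what each was used for. The deposited tables hold 1 FPKM value per gene and group with a p-value and q-value per comparison, per the file headers. Nothing states that the value of a group rests on both of its libraries. The deposited q-values equal Benjamini-Hochberg adjustment over the tested genes within 5.22e-07. Since FPKM is divided by length and by library size, it moves with the transcript models and with the most abundant genes.

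Log2 ratios were computed here from the deposited FPKM with no pseudocount (Python 3.11.15, pandas 2.3.3), and calls are the authors' q-values at 0.05. No model over libraries could be fitted. Values of the second table were divided by 1.017, the median ratio of the shared group over 13688 genes, where groups of both tables are set side by side. The code was tested on simulated data. The columns left out as belonging to other samples numbered 0. Members called in a table with a mean of at least 1 FPKM there, and PML, TRIM21, TRIM22, TRIM24, TRIM25, TRIM28 and TRIM33, were to be named with their values, and from each list of partners the 4 genes with the smallest q. One gene that this rule named is not reported here. CBX3, DAXX, MAVS, SETDB1 and the members not called were named after their values were seen. The members and lists were chosen with earlier results of these data known. All 43 members matched RefSeq GRCh38.p14 by Ensembl ID or symbol. Overlapping promoter windows of opposite strands were reverse complements of each other in 2731 of 2731 cases.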

Additional observations from a re-analysis of the deposited data

How the results depend on the processing

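A stricter q of 0.01 left 4 higher and 11 lower members with olaparib and 10 and 5 with shFoxO1, and adjustment over every listed gene gave the same counts. Under either, the olaparib calls of TRIM2, TRIM13, TRIM23, TRIM26, TRIM28, TRIM34 and TRIM68 and the shFoxO1 calls of TRIM32, TRIM33, TRIM56 and TRIM73 were lost. Asking also for a 2-fold change left 4 higher and 4 lower with olaparib and 6 and 3 with shFoxO1. A mean of at least 1 FPKM changed no count. Leaving out 9 members with close copies or overlapping transcripts, an alternative chosen after seeing the data, gave 7 and 12 with olaparib and 10 and 6 with shFoxO1. The median log2 ratio of the members with olaparib went from -0.13 to -0.052 after quantile normalization and to -0.059 with the median of all genes set to 0. With shFoxO1 it went from -0.07 to -0.15 after quantile normalization. Quantile normalization turned the olaparib ratio of TRIM28 from -0.38 to 0.058, and the cause was not tested. It moved 6 of the 14 lower olaparib calls by over 1.5 times (PML, TRIM25, TRIM26, TRIM27, TRIM28 and TRIM41) and none of the 8 higher ones or of the 19 shFoxO1 calls. A pseudocount of 0.1 moved no called ratio that far. No paired analysis was possible because the tables give 1 value per group, and for the same reason no library could be left out. Depth is unknown, so the precision of low values such as those of TRIM73 and TRIM45 cannot be given.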

Other observations

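Several family members of other tissues were read at low levels that the authors did not test. TRIM46 and TRIM54, which bind microtubules in neurons and in muscle, were at 0.124 and 0.112 FPKM in untreated shCon cells, 0.301 and 0.266 FPKM with olaparib and 0.0543 and 0.0604 FPKM with shFoxO1 and olaparib. TRIM74, a close copy of TRIM73, was at 0.0357, 0.316 and 0.0510 FPKM in the same order. TRIM71, a regulator of stem cell RNAs, was at 0.0106 and 0.119 FPKM in shCon cells and was listed at 0 with shFoxO1. The family relative TRIML2 was at 0.373, 0.0357 and 0.144 FPKM. At these levels no direction can be read.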
